A study of Mus musculus with 6 samples.

Results

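Wnt ligands, their Frizzled receptors and the secreted inhibitors of the Sfrp and Dkk families were followed in the hippocampus of newborn mice exposed to high oxygen. The genes were taken by a naming rule, as every protein-coding gene whose symbol is Wnt, Fzd, Sfrp or Dkk followed by a digit. The rule used no measured values, but earlier results of these data were known when it was set. It gave 35 of the 24935 genes in the table: 18 Wnt ligands, 10 Frizzled receptors, 4 Sfrp genes and 3 Dkk genes. Frzb, an Sfrp-related inhibitor with another name, was not taken. All mice were C57BL/6. Pups of both sexes were kept with their dams either in room air (Air) or in 85% oxygen at normal pressure (Hyperoxia) from postnatal day 2 (P2) to P14, and the left hippocampus was taken at P14. Polyadenylated RNA was sequenced from 3 Air and 3 Hyperoxia animals. The litter and sex of each sequenced animal were not among the sample details used here. Whether they differed between the groups cannot be told. The table names the libraries of a group 1, 2 and 3, and these are not animal numbers. Air and Hyperoxia below mean the libraries with those column headings. For many mRNAs the study's own text gives the opposite direction to the headings, which of them is right could not be settled here, and were the headings exchanged every direction given below would turn.

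Wnt proteins are lipid-modified signals that act over short distances. They bind Frizzled receptors at the cell surface, and with the co-receptors Lrp5 and Lrp6 this stops the destruction of beta-catenin, which then enters the nucleus and acts with Tcf and Lef transcription factors. Other Wnt proteins act through Ror and Ryk receptors or the planar cell polarity proteins and shape cell movement and axon growth. Sfrp proteins carry a Frizzled-like domain and bind Wnt proteins outside the cell, whereas Dkk proteins such as Dkk1 and Dkk2 bind the Lrp co-receptors. In the hippocampus the pathway is known for patterning of the early primordium, for the generation of dentate granule neurons and for synapse formation.

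Libraries held 30384052 to 38746972 reads on genes, and a tested gene had a median of 449 to 576 reads per library. Values are counts that the authors divided by a size factor per library (normalized counts). A gene was tested when its mean over the 6 libraries was at least 10, and it is called higher or lower where limma's Benjamini-Hochberg adjusted p, taken over all genes tested, was under 0.05. Prox1 and Neurod6, from the list of markers of hippocampal and dentate granule neurons, had at least 5181 and 7161 normalized counts in every library. Of the 5 markers on that list, 3 were called lower, Neurod6 among them, and none higher. Their summed level was 38422 to 41427 in Air and 22866 to 37930 in Hyperoxia. Summed neocortex markers were at 8150 to 9087 in Air and 9448 to 13788 in Hyperoxia, and 3 of 6 were called higher. Hyperoxia libraries varied more than Air libraries, with a median SD over the tested family members of 0.26 against 0.12 on the log2 scale. Hyperoxia library 2 held the highest value of its group in 14 of 33 tested family members (42.4%), and in 40.2% of all genes tested.

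Of the 35 genes, 33 passed the filter, and 8 of these differed between the groups. By the column headings, Fzd3, Fzd10, Fzd4, Fzd1, Fzd6, Wnt5a and Sfrp2 were higher and Wnt8b was lower in the Hyperoxia libraries. Over all 17778 genes tested, 30.5% were called, 14.9% higher and 15.6% lower, so the share called among the Wnt pathway families was below that of the table. The direction was uneven, with 7 genes higher and 1 lower. The median log2 fold change of the 33 genes was 0.25, and that of all genes was -0.01. Hyperoxia and Air libraries did not overlap for 13 of the 33 genes, 11 higher and 2 lower, against 46.1% of all genes tested. By family, 5 of 10 Frizzled genes, 1 of 17 Wnt genes, 1 of 4 Sfrp genes and 0 of 2 Dkk genes were called higher. By limma at an unadjusted p under 0.05, 1 of the 2 tested Dkk genes differed, against 13 of the 33 family members and 7594 of the 17778 genes tested. No Dkk gene was called by edgeR or by DESeq2 on the recovered reads.

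**Figure D1:**
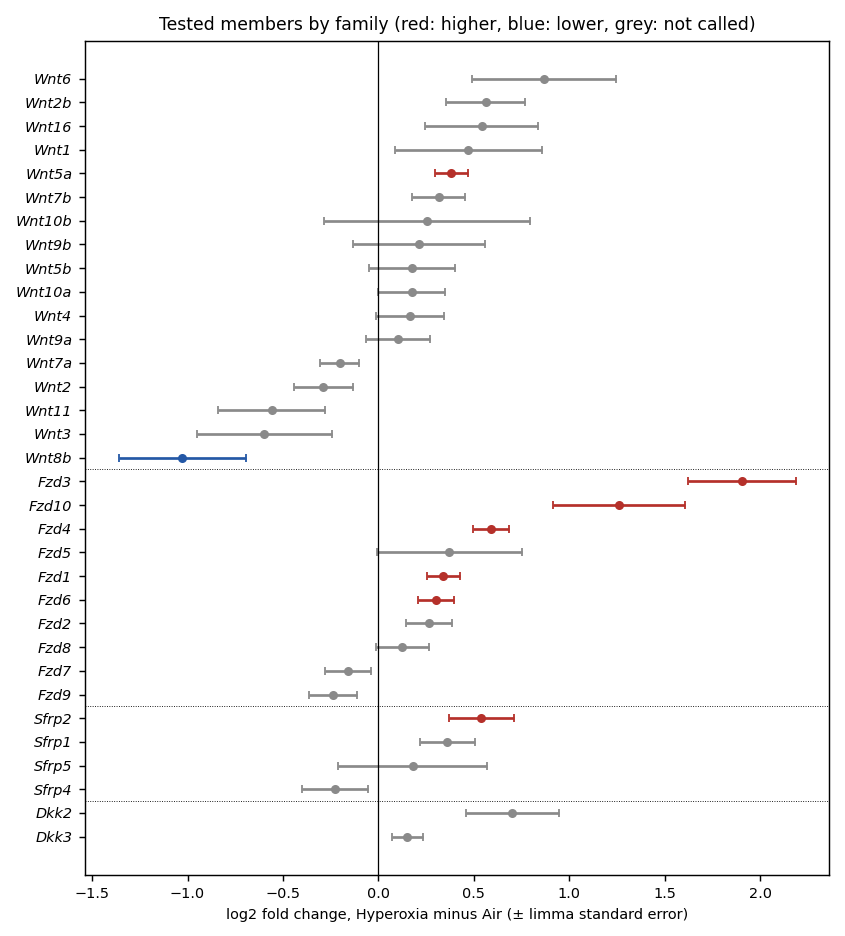
Log2 fold change (Hyperoxia minus Air) with its limma standard error for the 33 tested genes, grouped by family. Red marks the 7 genes called higher, blue the 1 called lower, and Fzd3 lies farthest to the right at 1.90.

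The counts of called genes moved with single libraries. Leaving out Air library 1, 2 or 3 left 4, 3 and 5 family members called, and leaving out Hyperoxia library 1, 2 or 3 left 3, 11 and 10. Over all genes the same omissions gave 3048, 3087, 3662, 3378, 7756 and 4982 calls. Family calls fell and rose with those of the table, except without Hyperoxia library 3, where the table lost calls and the families gained them. In tissue RNA, fewer cells of a type and less RNA per cell cannot be told apart.

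Among the Frizzled receptors, the clearest difference was in Fzd3, a receptor known for axon guidance and planar cell polarity (chr14:65192449-65262463, minus strand, GRCm38). Fzd3 had 109, 102 and 106 normalized counts in the Air libraries and 470, 229 and 582 in the Hyperoxia libraries. The Air libraries were nearly equal, and the lowest Hyperoxia library was still above all of them. The log2 fold change was 1.90 (SE 0.28, limma adjusted p = 0.00169), with group means of 106 ± 3.74 in Air and 427 ± 181 in Hyperoxia (SD, n = 3). Fzd3 was called in all 16 alternative analyses, and its log2 fold change was between 1.63 and 2.30 when any 1 library was left out.

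Fzd4, which also serves as the receptor for Norrin and is known for its role in retinal and brain blood vessels (chr7:89404355-89413134, plus strand), had 385, 424 and 452 normalized counts in Air and 636, 597 and 663 in Hyperoxia. The groups did not overlap and both were tight. Its log2 fold change was 0.59 (SE 0.09, limma adjusted p = 0.00228), and it too was called in all 16 alternative analyses. Markers of endothelial cells moved in both directions in the same libraries. Of 5 such markers 2 were higher (Cldn5 and Cdh5), 1 was lower (Ly6c1) and 2 were not called, and their summed level was 6075 to 6219 in Air and 6493 to 7693 in Hyperoxia. Their part in the Fzd4 difference was not tested.

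Fzd10 had the next largest fold change after Fzd3, at a lower level (chr5:128600844-128604093, plus strand). It had 46.1, 44.8 and 32.9 normalized counts in Air and 108, 163 and 55.0 in Hyperoxia. All Hyperoxia libraries were above all Air libraries, but they differed among themselves, with library 2 highest and library 3 close to the Air values. This was a log2 fold change of 1.26 (SE 0.34, limma adjusted p = 0.0219), and the call held in 11 of 16 alternatives. It was lost without a trend in the variance (adjusted p = 0.0649 by limma) and on leaving out Air library 1, 2 or 3 or Hyperoxia library 1 (limma adjusted p = 0.0593, 0.0588, 0.0785 and 0.075). Summed thalamic markers were also highest in Hyperoxia library 2, at 9130 against 5307 and 5788 in the other Hyperoxia libraries and 5107 to 5726 in Air. Of the 6 thalamic markers tested 3 were higher, and the seventh listed, Gbx2, had under 13 normalized counts in every library. The list holds Tcf7l2, which was called higher, and Lef1, which was not called. Both are also counted below as Wnt pathway genes. The part of these markers in the Fzd10 difference was not tested.

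Fzd1 and Fzd6 had the highest levels of the Frizzled genes per kb of exon, and both rose by about the same amount. Fzd1 (chr5:4753839-4758035, minus strand) had 470, 472 and 519 normalized counts in Air and 635, 618 and 596 in Hyperoxia. The groups were separate, and the spread within each was smaller than the gap between the means. Fzd1 rose by 0.34 on the log2 scale (SE 0.09, limma adjusted p = 0.0156). Fzd6, a planar cell polarity receptor known for hair patterning (chr15:39006034-39038188, plus strand), had 474, 518 and 533 normalized counts in Air and 606, 593 and 681 in Hyperoxia. These groups did not overlap either. Its log2 fold change was 0.30 (SE 0.09, limma adjusted p = 0.0357). The Fzd1 call was lost on leaving out Air library 1 or 2 or Hyperoxia library 1 (limma adjusted p = 0.07, 0.0732 and 0.0622). The Fzd6 call held in 10 of 16 alternatives and was lost for every omitted library except Hyperoxia library 2 (limma adjusted p from 0.0668 to 0.14 in those 5 analyses) and without a variance trend (0.0609). Fzd6 shares 152 exon bases with Gm26704 on the other strand, which had a mean of 2.46 normalized counts. Whether reads were counted by strand is not stated, so for this and the other overlaps named here the reads of the partners may be mixed.

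The other 5 Frizzled genes were not called. Fzd2, with 321 to 473 normalized counts over the libraries, had a log2 fold change of 0.26 (limma adjusted p = 0.128). It passed after removal of the trend of fold change with transcript length and GC content (0.34, limma adjusted p = 0.0286). Fzd8, with 159 to 207 normalized counts, had 0.13. Fzd7, at 247 to 339 normalized counts, had -0.16. Fzd9, a receptor known from hippocampal development, was the 1 Frizzled gene with all Hyperoxia libraries below all Air libraries (187, 217 and 186 against 261, 218 and 219, a narrow gap), and its log2 fold change of -0.24 did not pass the test (limma adjusted p = 0.174). Fzd5 depended on 1 library. It had 36.5 ± 1.97 normalized counts in Air and 68.1, 22.6 and 68.5 in Hyperoxia, so that Hyperoxia library 2 lay below Air and the others above it. With all libraries its log2 fold change was 0.37 (limma adjusted p = 0.486), and without Hyperoxia library 2 it was 0.89 (0.00514). Fzd5 shares 1233 exon bases with Gm38058 on the other strand, which had a mean of 3.69 normalized counts.

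**Figure D2:**
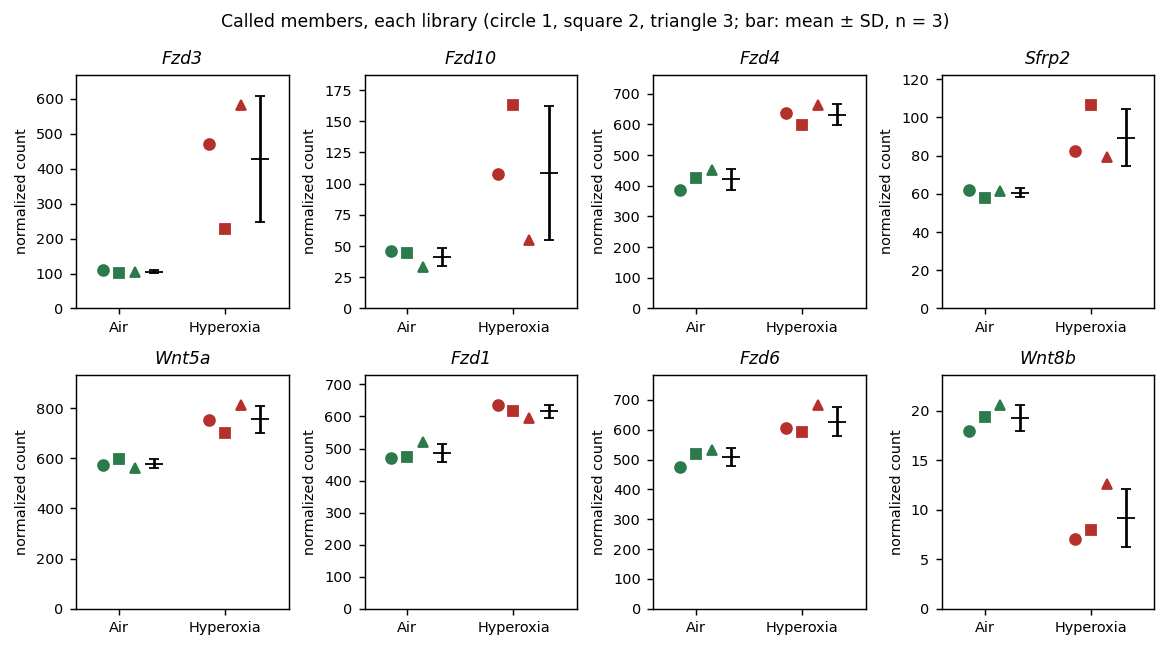
Normalized counts of the 8 called genes in each library, with Air in green and Hyperoxia in red, circles, squares and triangles for libraries 1, 2 and 3, and bars for the mean ± SD (n = 3). The 2 groups are apart in every panel, and the Hyperoxia libraries of Fzd3 and Fzd10 are the most spread.

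Among the ligands, Wnt5a rose and Wnt8b fell. Wnt5a, the ligand best known for signaling without beta-catenin through Ror2 (chr14:28504750-28527448, plus strand), had 573, 598 and 563 normalized counts in Air and 752, 701 and 811 in Hyperoxia. The lowest Hyperoxia library was well above the highest Air library. Wnt5a rose by 0.38 on the log2 scale (SE 0.09, limma adjusted p = 0.00983). It was called in 15 of 16 alternatives, the exception being removal of the trend of fold change with transcript length and GC content (log2 fold change 0.18, limma adjusted p = 0.0891). Wnt5a shares 358 exon bases with Gm2670 on the other strand, which had a mean of 6.25 normalized counts.

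Wnt8b, known from the early hippocampal primordium (chr19:44493472-44514273, plus strand), was near the lower limit of what could be tested. It had 17.9, 19.3 and 20.5 normalized counts in Air and 7.07, 7.93 and 12.5 in Hyperoxia, which are 19, 19 and 20 reads against 8, 7 and 13. Each Hyperoxia library was below each Air library. Wnt8b fell by 1.03 on the log2 scale (SE 0.33, limma adjusted p = 0.0416). The call held in 8 of the 15 alternatives in which Wnt8b was tested. It was lost with DESeq2 (adjusted p = 0.117), after removal of the length and GC trend (limma, 0.0502) and on leaving out any library except Hyperoxia library 3 (limma adjusted p from 0.0563 to 0.125). Of 5 markers of hippocampal and dentate granule neurons 3 were also lower (C1ql2, Dsp and Neurod6), and their summed level was 38422 to 41427 in Air and 22866 to 37930 in Hyperoxia. The part of these markers in the Wnt8b difference was not tested.

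The most abundant ligand per kb of exon was Wnt7b, which with Wnt7a is known for blood vessel growth in the brain and for dendrite and synapse formation. Wnt7b had 1408, 1284 and 1339 normalized counts in Air and 1640, 2106 and 1351 in Hyperoxia. The Hyperoxia libraries reached from the Air range to well above it, and the log2 fold change was 0.32 (SE 0.14, limma adjusted p = 0.112). Wnt7b passed without Hyperoxia library 3 (0.47, limma adjusted p = 0.0107) and after removal of the length and GC trend (0.41, 0.0105). It shares 324 exon bases with AU022754 on the other strand. Wnt7a had 747 to 845 normalized counts in Air and 611 to 771 in Hyperoxia. Its change of -0.20 (log2, limma adjusted p = 0.158) passed without Hyperoxia library 2 (-0.28, 0.0245). Wnt4 had 912 ± 52.1 normalized counts in Air and 1054 ± 318 in Hyperoxia (SD, n = 3), with overlap and a log2 fold change of 0.17 (limma adjusted p = 0.509).

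Wnt3, a ligand that hippocampal astrocytes are known to supply to the dentate gyrus, differed between Hyperoxia libraries. It had 118, 129 and 172 normalized counts in Air and 61.0, 179 and 68.5 in Hyperoxia. Hyperoxia libraries 1 and 3 were below all Air libraries and library 2 was above them. The log2 fold change was -0.60 (limma adjusted p = 0.23) over all libraries and -1.08 (0.0011) without Hyperoxia library 2. Wnt11 had 58.5 to 72.5 normalized counts in Air and 43.3, 30.6 and 69.5 in Hyperoxia. Its change of -0.56 (log2, limma adjusted p = 0.155) became -0.86 (0.0212) without Hyperoxia library 3. Wnt6 went the other way, at 12.2 to 17.5 normalized counts in Air and 31.8, 43.0 and 15.4 in Hyperoxia. Its log2 fold change was 0.87 (limma adjusted p = 0.11), or 1.27 (0.0155) without Hyperoxia library 3 and 1.02 (0.0452) after removal of the length and GC trend.

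Wnt2b, a ligand of the cortical hem beside the hippocampal primordium, came close to the threshold. It had 63.1, 92.6 and 108 normalized counts in Air and 140, 111 and 132 in Hyperoxia, without overlap. The log2 fold change was 0.56 (SE 0.21, limma adjusted p = 0.0646). It passed without Air library 3 (0.0449), without Hyperoxia library 2 (0.0292) and after removal of the length and GC trend (0.0385, all by limma). Wnt16, at 12.2 to 24.8 normalized counts, was also without overlap, with a log2 fold change of 0.54 (limma adjusted p = 0.194).

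For the remaining ligands the groups overlapped and none of the 16 alternatives called them. Wnt2, at 139 to 235 normalized counts, had a log2 fold change of -0.29. Wnt9a at 188 to 302, Wnt10a at 72.9 to 98.5 and Wnt5b at 40.5 to 71.3 normalized counts had 0.10, 0.17 and 0.17. Wnt9b at 32.9 to 86.0, Wnt1 at 8.21 to 26.1 and Wnt10b at 4.07 to 19.4 had 0.21, 0.47 and 0.25. Removing a single library turned the sign of Wnt4, Wnt5b, Wnt9a, Wnt9b, Wnt10b and Sfrp5, with no call on either side. Wnt3a, the hem ligand needed for growth of the hippocampus in the embryo, and Dkk1 were under the filter with 0 to 2 reads in each library. A count of 0 in a library allows a level of up to 3 counts, which is 2.65 to 3.40 normalized counts in these libraries.

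**Figure D3:**
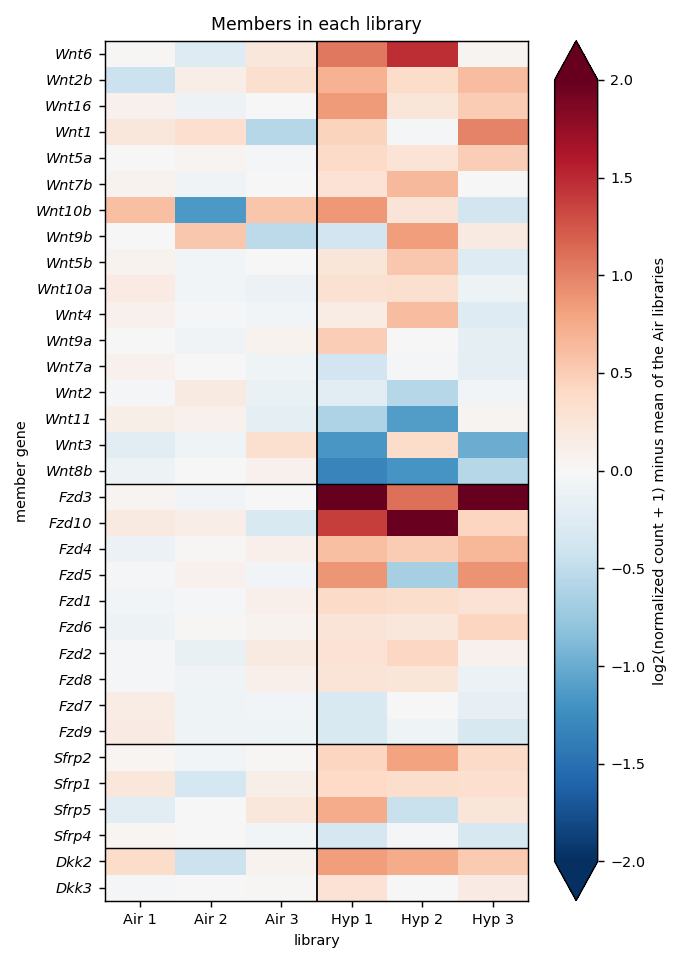
Log2(normalized count + 1) of the 33 tested genes in each library (columns; Air 1 to 3 left, Hyperoxia 1 to 3 right), minus the mean of the 3 Air libraries. The Hyperoxia columns differ among themselves, and Wnt3 and Fzd5 in Hyperoxia library 2 have the opposite colour to libraries 1 and 3.

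Among the tested Sfrp and Dkk genes of the naming rule, Sfrp2 was the 1 called gene (chr3:83766321-83774316, plus strand). It had 62.2, 58.0 and 61.6 normalized counts in Air and 82.2, 106 and 79.1 in Hyperoxia. The Air libraries were nearly equal and all Hyperoxia libraries were above them. Sfrp2 rose by 0.54 on the log2 scale (SE 0.17, limma adjusted p = 0.0388). The call held in 9 of 16 alternatives and was lost without a filter (limma, 0.0566), with DESeq2 (0.061) and on leaving out any library except Hyperoxia library 3 (limma adjusted p from 0.0716 to 0.121). Sfrp2 shares 347 exon bases with Gm26771 on the other strand, which had a mean of 1.45 normalized counts.

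Markers of meninges and fibroblasts moved with the groups as well. Of 6 such markers 5 were higher (Lum, Col1a1, Col1a2, Col3a1 and Slc6a13) and Dcn was not called. Their summed level was 3806 to 4807 in Air and 5304 to 8242 in Hyperoxia, with library 2 highest, as for Sfrp2. The part of these markers in the Sfrp2 difference was not tested.

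Sfrp1, the Sfrp gene with the highest level, had 347, 232 and 322 normalized counts in Air and 389, 379 and 374 in Hyperoxia. The Hyperoxia libraries were within a few percent of each other and above all Air libraries, while Air library 2 was low. The log2 fold change was 0.36 (SE 0.15, limma adjusted p = 0.0868), and none of the 16 alternatives called it. Sfrp4 had 59.5 to 63.1 normalized counts in Air and 48.6 to 60.0 in Hyperoxia, a log2 difference of -0.23 (limma adjusted p = 0.343). Sfrp5 was low, at 7.93 to 19.4 normalized counts, and its groups overlapped.

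Dkk3, a divergent Dickkopf protein, was by far the most abundant gene of the 4 families. It had 7137, 7267 and 7324 normalized counts in Air and 8810, 7280 and 8098 in Hyperoxia. Hyperoxia library 2 lay inside the Air range and the others above it. The log2 fold change was 0.15 (SE 0.08, limma adjusted p = 0.184), and 0.22 (0.0121) without Hyperoxia library 2. Dkk2 had 43.3, 24.4 and 34.9 normalized counts in Air and 60.1, 56.6 and 48.3 in Hyperoxia, without overlap. Its log2 fold change of 0.70 (SE 0.24) just missed the threshold (limma adjusted p = 0.0543) and passed without Air library 1 (0.88, 0.0486).

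Levels of different genes were compared as normalized counts per kb of exon, averaged over the 6 libraries. Dkk3 was first at 2278 ± 197 (SD, n = 6). Of the ligands, Wnt7b (311 ± 63.7) was followed by Wnt7a (234 ± 25.7) and Wnt4 (234 ± 52.0). Next came Wnt5a (85.2 ± 13.2) and Wnt2 (84.6 ± 14.1). These means pool the groups, and within a group the order of close neighbours could turn. Wnt2 (92.7) was above Wnt5a (73.9) in Air and below it in Hyperoxia (76.4 against 96.5). Wnt7a (251) was above Wnt4 (217) in Air and below it in Hyperoxia (218 against 251), and Fzd9 (101) was above Fzd4 (62.6) in Air and below it in Hyperoxia (85.8 against 94.0). The other 12 tested ligands ran from Wnt9a (67.4 ± 12.1) and Wnt3 (39.4 ± 16.2) down to Wnt10b (3.68 ± 1.68). Of the receptors, Fzd1 (131 ± 17.6), Fzd6 (118 ± 15.4), Fzd2 (107 ± 15.3), Fzd9 (93.6 ± 11.97), Fzd4 (78.3 ± 17.8) and Fzd7 (64.1 ± 6.86) formed a run in which neighbours were closer than the larger of their SDs over the 6 libraries. Fzd8 (30.4 ± 3.41) stood below that run. Fzd3 and Fzd10, with the largest fold changes, were low on this scale. In Air Fzd3 was at 8.25 and Fzd10 at 12.7 per kb, and in Hyperoxia they were at 33.3 and 33.4. Fzd5 was the lowest receptor at 6.47. Of the inhibitors, Sfrp1 (77.9 ± 13.4) was above Sfrp2 (34.8 ± 8.54), Sfrp4 (13.7) and Sfrp5 (6.57), and Dkk2 was at 12.04.

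Fold changes in this table varied with transcript length. Of 5 equal groups of genes by transcript length, the longest (5034 bases or more) had 31.1% called higher and 6.99% lower. The shortest (up to 1721 bases) had 5.69% called higher and 18.5% lower. The longest group held 5 of the 33 family members, of which 3 were called higher. These were Fzd3 with 12734 bases, Wnt5a with 7010 and Fzd4 with 6720. With the length and GC trend removed, log2 fold changes were 1.50 for Fzd3 (limma adjusted p = 0.000407), 0.40 for Fzd4 (0.00438) and 0.18 for Wnt5a (0.0891). In that analysis 10 of the 33 family members were called, all higher. Over all 17735 genes of that analysis, 6191 were called, 2821 higher and 3370 lower.

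**Figure D4:**
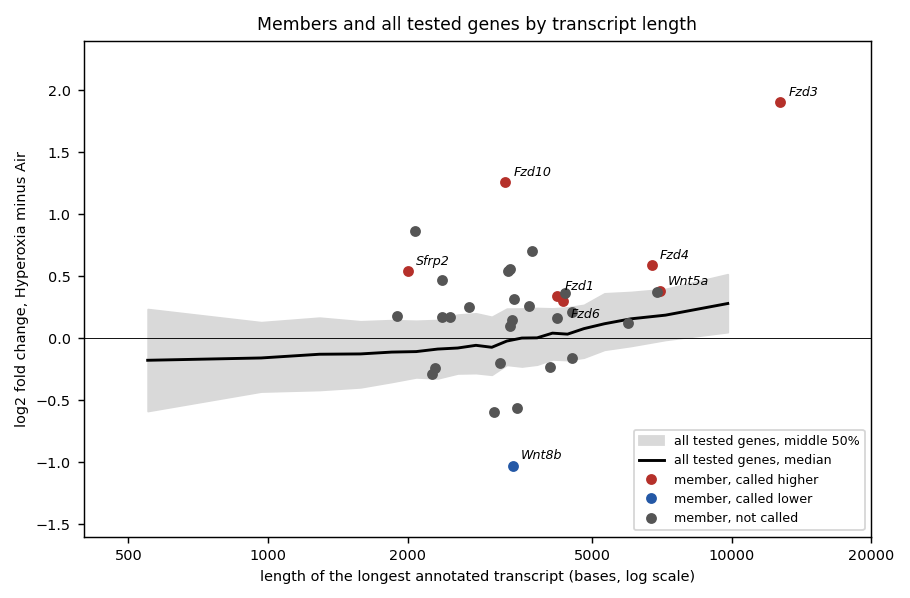
Log2 fold change (Hyperoxia minus Air) against the length of the longest annotated transcript in bases on a log scale. Points are the 33 tested family members and the black line and grey band are the median and middle 50% of all genes tested in length bins; the line rises with length, and Fzd3 lies far above it at 12734 bases.

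Several of the ligand genes sit beside each other in the genome. Wnt6 and Wnt10a are 6193 bases apart on the same strand, and their log2 fold changes were 0.87 and 0.17. Wnt10b and Wnt1 are 11706 bases apart (0.25 and 0.47), and Wnt9b and Wnt3 are 24328 bases apart (0.21 and -0.60). None of these 6 genes was called.

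Promoter sequence from RefSeq (GRCm38.p6) was matched to 25 of the 35 genes and to 5 of the 8 called genes. The 250 bases before each annotated start are shown for the called genes whose window lies outside their own GENCODE exons, so that the sequence beside a receptor and an inhibitor that rose and a ligand that fell can be read. They are chr5:4758217-4758466 on the minus strand for Fzd1, chr3:83766071-83766320 on the plus strand for Sfrp2 and chr19:44493222-44493471 on the plus strand for Wnt8b, each printed 5′ to 3′. Capitals mark matches to the motifs searched.
Fzd1: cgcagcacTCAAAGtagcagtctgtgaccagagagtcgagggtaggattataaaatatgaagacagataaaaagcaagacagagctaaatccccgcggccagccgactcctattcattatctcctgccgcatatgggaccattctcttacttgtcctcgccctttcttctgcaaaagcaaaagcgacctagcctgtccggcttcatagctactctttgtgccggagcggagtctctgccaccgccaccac
Sfrp2: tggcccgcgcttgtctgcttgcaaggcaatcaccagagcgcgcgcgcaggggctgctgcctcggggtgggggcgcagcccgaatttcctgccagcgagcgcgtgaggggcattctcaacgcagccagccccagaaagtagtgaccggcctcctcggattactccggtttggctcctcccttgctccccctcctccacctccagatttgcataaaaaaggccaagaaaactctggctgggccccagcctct
Wnt8b: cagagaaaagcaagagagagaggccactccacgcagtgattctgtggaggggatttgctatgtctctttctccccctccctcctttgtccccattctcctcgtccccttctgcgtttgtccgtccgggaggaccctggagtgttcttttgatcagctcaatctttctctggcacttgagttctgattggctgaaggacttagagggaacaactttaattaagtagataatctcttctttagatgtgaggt

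The motifs were TCAAAG (the core of Tcf and Lef sites), ACGTG (the hypoxia response core) and TGACNNNGC (the antioxidant response core), each searched on both strands. The Fzd1 window held 1 TCAAAG, and the Sfrp2 and Wnt8b windows held none of the 3 motifs. TCAAAG was in 4 of 28 promoter windows of the 25 matched genes and in 13.8% of 32851 promoter windows of all genes. ACGTG was in 4 of 28 and 16.6%, and TGACNNNGC in 5 of 28 and 10.2%. The windows of the Wnt pathway families were rich in G and C, with a median GC content of 69.4% against 52.4% and a median of 22 CpG against 6. The Wnt8b window had 48.4% and 5 CpG, the Fzd1 window 51.2% and 12 CpG, and the Sfrp2 window 63.6% and 16 CpG.

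Of 66 other genes of the pathway, 64 were tested, 15 were called higher and 8 lower, with a median log2 fold change of 0.02. The share called was 23 of 64, against the 30.5% of all genes. Leaving out Hyperoxia library 2 or 3 gave 30 and 24 calls, and leaving out Air library 1, 2 or 3 or Hyperoxia library 1 gave 14, 14, 16 and 15. Among 6 co-receptors and other Wnt receptors, Ror2, the receptor for Wnt5a, had 21.7, 31.5 and 29.8 normalized counts in Air and 46.8, 71.3 and 46.3 in Hyperoxia. Its groups did not overlap, and its log2 fold change was 0.95 (limma adjusted p = 0.0192). It was not called without Air library 1 (0.79, limma adjusted p = 0.0783). Ptk7 also rose (0.36) and Ryk fell (-0.24). The co-receptor Lrp6 had 0.33 (limma adjusted p = 0.0528). Lrp6 was called in 5 of 16 alternatives. It passed with DESeq2 (adjusted p = 0.0181), with edgeR (0.0413), with TMM scaling (0.049) and with quantile normalization (0.041, both limma), and without Hyperoxia library 2 (0.00146, limma). After removal of the length and GC trend its log2 fold change was 0.05 (limma adjusted p = 0.505).

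Among the R-spondin receptors and ligases, Lgr6, which binds R-spondins, had the largest change of the listed genes. Lgr6 had 128, 119 and 122 normalized counts in Air and 365, 462 and 406 in Hyperoxia, far apart and with a small spread in each group. Its log2 fold change was 1.73 (SE 0.12, limma adjusted p = 0.000179), between 1.64 and 1.81 when any library was left out. Znrf3, a ligase that removes Frizzled receptors from the surface, rose by 0.39 on the log2 scale, and 6 of the 8 tested genes of this list were not called.

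All 3 genes that process the ligands were called. Porcn, which attaches the lipid to Wnt proteins, fell from 3273 ± 53.0 to 2237 ± 120 normalized counts (SD, n = 3; log2 fold change -0.55, limma adjusted p = 0.00094). Wls, which carries Wnt proteins to the surface, rose from 666 ± 17.9 to 919 ± 64.5 (0.46, limma adjusted p = 0.00376). Notum, which removes the lipid, fell from 130 ± 17.7 to 80.0 ± 15.8 (-0.71, limma adjusted p = 0.0161). The Porcn and Wls calls held in all alternatives, and that of Notum was lost without Air library 1 (-0.60, limma adjusted p = 0.0787) or Hyperoxia library 1 (-0.68, 0.0553).

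Of the 9 tested genes listed as other inhibitors, which the naming rule did not take, Dkkl1 (0.92), Tpbg (0.65) and Apcdd1 (0.38) were called higher and none lower. Whether Dkkl1 inhibits Wnt signaling was not tested. Frzb, an Sfrp-related inhibitor, had -0.44 and was not called (limma adjusted p = 0.0674). It was called lower with DESeq2 (-0.42, adjusted p = 0.0397) and without Hyperoxia library 2 (-0.59, limma adjusted p = 0.00752), which were 2 of 16 alternatives. Inside the cell, Apc (0.76), Amer1 (0.46) and Gsk3b (0.29) of the destruction complex rose, and Dvl2 (-0.67), which relays the Frizzled signal, and Gsk3a (-0.41) fell. The other 7 of these 12 genes were not called, Axin2 among them (-0.22, limma adjusted p = 0.0815). Without the length and GC trend, Apcdd1 (0.10, limma adjusted p = 0.554), Gsk3b (0.04, 0.631) and Amer1 (0.21, 0.0603) were no longer called.

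Of beta-catenin and its nuclear partners, Ctnnb1, the gene of beta-catenin, rose from 10186 ± 75.3 to 13506 ± 1154 normalized counts (SD, n = 3; log2 fold change 0.40, limma adjusted p = 0.00489). Ctnnbip1, which blocks its binding to Tcf proteins, rose (0.33), and Bcl9l (-0.27) and Pygo1 (-0.33) fell. Tcf7l2 had 384, 372 and 528 normalized counts in Air and 514, 1085 and 659 in Hyperoxia. Its groups overlapped, Hyperoxia library 2 was highest, and the log2 fold change was 0.76 (limma adjusted p = 0.0394). Tcf7l2 is also a thalamic marker, and it was not called with DESeq2 (adjusted p = 0.0721), without a variance trend (limma, 0.109) or without Air library 1 or 2 (limma adjusted p = 0.14 and 0.137). Lef1 was not called (0.31, limma adjusted p = 0.14) but passed without Hyperoxia library 3 (0.46, 0.0265).

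Of 11 planar cell polarity genes, Vangl1 rose (0.47), Prickle1 fell (-0.36) and 9 were not called. The Vangl1 call held in 8 of 16 alternatives and was lost after removal of the length and GC trend (0.30, limma adjusted p = 0.199), without a variance trend (0.078) and with quantile normalization (0.0622). Of 12 genes that beta-catenin is known to induce in many tissues, Znrf3 rose, Notum fell and 10 were not called. The calls of Amer1, Bcl9l, Gsk3b, Ptk7, Pygo1, Ryk, Tpbg, Vangl1 and Znrf3 were each lost on leaving out at least 1 library, with limma adjusted p from 0.0533 (Tpbg without Hyperoxia library 1) to 0.163 (Pygo1 without Hyperoxia library 1) in those analyses.

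**Figure D5:**
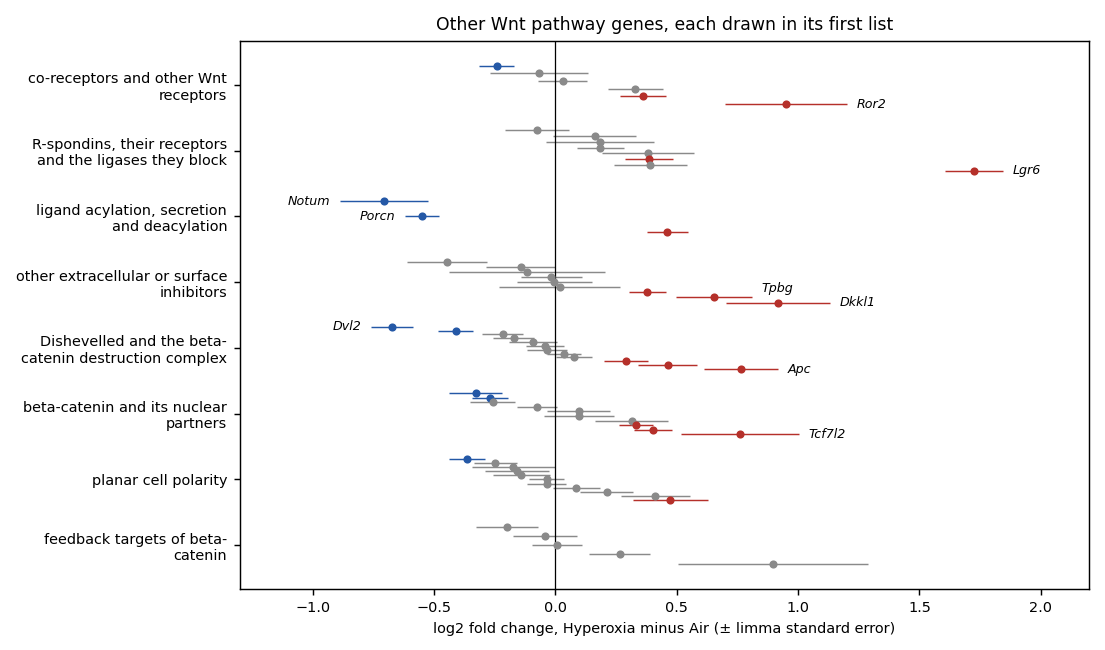
Log2 fold change (Hyperoxia minus Air) with its limma standard error for the 64 tested pathway genes that the naming rule did not take. Each is drawn in the first list that holds it. Red marks genes called higher, blue genes called lower and grey genes not called; Lgr6 is farthest to the right at 1.73 and Notum farthest to the left at -0.71.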

How the data were processed

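RNA from the left hippocampus of 3 Air and 3 Hyperoxia mice was sequenced as strand-specific, polyA-selected libraries. The submitters' processing notes name FastQC, STAR 2.5.3a, HTSeq and DESeq2. The genome build, annotation and strand setting of the counting were not given in the sources used here. Each deposited signal is the count of a gene divided by a DESeq2 size factor of the library. Of the values, 100% were whole multiples of what 1 read is worth (tolerance 0.01), and this gave the reads back. A second deposited table holds the authors' own comparison of the groups and was not used.

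Groups came from the sample labels and, for the columns, from their headings, which are in doubt because the study's text gives many mRNAs the opposite direction. The main test was limma 3.58.1 with a variance trend on log2(normalized count + 1) on genes averaging 10 or more, with Benjamini-Hochberg adjustment over 17778 genes. Fold changes are on that scale, which understates the change of low genes. The recovered reads were tested with edgeR 4.0.16 (quasi-likelihood) and DESeq2 1.42.0, 2 of 16 alternatives. edgeR called 5501 genes and DESeq2 5611. Another removed the trend of fold change with transcript length and GC content over 17735 genes (mgcv 1.9.3). The rest changed the pseudocount (0.5 or 5), the filter (a mean of 50, or none), the scaling (TMM or quantile), the variance trend, or left out 1 library. A fit with the library number as a block was added after seeing the data. Positions and exon lengths are from GENCODE M21 (GRCm38), which held 99.7% of the gene IDs.

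The family members and all gene lists were chosen with earlier results of these data known. Called members and the most abundant gene of each family are given in every library, other members by range and fold change, and of the pathway lists every called gene with Ctnnb1, Lrp6, Axin2, Lef1 and Tcf7l2. Library numbers were not matched to animals. Replicates of a group differed by more than sampling noise (chi-square per gene 6.51 to 47.2). With 3 against 3, an exact permutation test cannot go below 0.10. Scripts were tested on simulated counts that varied equally in both groups. That does not cover the larger spread of the Hyperoxia libraries.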

Additional observations from a re-analysis of the deposited data

How the results depend on the processing

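Animal numbers differ between the groups, but the column headings number the libraries of each group 1 to 3. Deviations of same-numbered libraries from their group means correlated at -0.08, 0.13 and 0.10 across genes for numbers 1, 2 and 3, and not every library correlated best with its own number, so the numbers were not taken as pairs. With the number as a replicate block, added after seeing the data, 6211 genes, 11 family members and 29 pathway genes were called, 4 of them in the planar cell polarity list. In the 16 alternatives, over the 33 family members and 64 pathway genes tested, 1375 values kept their direction and side of the threshold, 80 lost a call, 40 gained one and 45 changed sign without a call, and no called value was reversed. Among family members, 0 were called lower with a mean of at least 50, with DESeq2 or after removal of the length and GC trend, against 1. Of the pathway genes, 5 were called lower without a variance trend and 13 after removal of the length and GC trend, against 8. With that trend removed, 3 genes were called in the list of Dishevelled and the destruction complex, against 5, and 5 in the planar cell polarity list, against 2. Without a variance trend, 2 were called among beta-catenin and its partners, against 5, and 1 in the planar cell polarity list. Quantile normalization also gave 1 in the planar cell polarity list. Leaving out 1 library gave 3048 to 7756 calls over all genes (1445 to 3838 higher, 1603 to 3918 lower), 3 to 11 family members (3 to 9 higher, 0 to 2 lower) and 14 to 30 pathway genes (8 to 20 higher, 4 to 10 lower). By list the omissions gave 3 to 6 calls for Dishevelled and the destruction complex, 1 to 4 for R-spondins and their receptors, 2 to 7 for beta-catenin and its partners, 1 to 4 for co-receptors, 1 to 4 for induced genes, 2 to 3 for ligand processing, 2 to 4 for other inhibitors and 1 to 5 for planar cell polarity. The cause of these shifts was not tested. Genes with few reads, such as Wnt8b, Wnt10b and Wnt16, are limited by depth.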

Other observations

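Choroid plexus genes, which mark tissue in the ventricles beside the hippocampus, differed between libraries. Ttr, Folr1, Clic6, Aqp1 and Otx2 were highest in Hyperoxia library 3, and Kl (385, against 421 in Air library 3) and Kcnj13 (13.5, against 15.9 in Hyperoxia library 1) were not. Ttr had 7454 normalized counts in Hyperoxia library 3, against 167 to 887 in the Air libraries and 350 and 183 in Hyperoxia libraries 1 and 2. Of the 33 tested members of the 4 families, 9 (27.3%) had the highest value of the Hyperoxia group in that library, Fzd3, Fzd4, Fzd6 and Wnt5a among them. The lowest value was there for 15 (45.5%), Fzd10 among them. Over all genes tested, 37.1% had their highest and 33.8% their lowest Hyperoxia value in that library. Of 6 choroid plexus markers tested, 1 was called higher (Aqp1).

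By the column headings, on which these directions rest, myelin genes fell in Hyperoxia, with 5 of 5 oligodendrocyte markers called lower, among them Mbp (log2 fold change -0.73, limma adjusted p = 0.0102) and Mobp (-1.09, 0.00191). In other mice at P14, the study reports a smaller area stained for the myelin protein CNPase in the CA1 region after hyperoxia. That is a protein measure in part of the hippocampus, and the headings were not tested against it. Of 4 markers of oligodendrocyte precursors, Pdgfra (0.58) and Cspg4 (0.41) rose. For Cspg4 mRNA the study itself lists a decrease. Of 6 astrocyte markers Aqp4 (0.53), Aldh1l1 (0.53) and Slc1a2 (0.51) rose and 3 were not called. These 3 were Gfap (0.06), Slc1a3 (-0.04) and Gjb6 (-0.03). The Slc1a2 call was lost after removal of the length and GC trend (0.19, limma adjusted p = 0.0755). By staining in the CA1 region, the study reports a larger GFAP area after hyperoxia.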
